A study of Rattus norvegicus with 4 samples.

Results

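The respiratory chain genes of the rat were taken by symbol: nuclear genes for subunits of complexes I to V (symbols that begin with Nduf and a subunit letter and digit, the Sdh genes a to d, and symbols that begin with Uqcr, Cox4 to Cox8 or Atp5) and the mitochondrially encoded genes for ND, CO, ATP and cytochrome b subunits. The choice used symbols only and no measured value. It gave 97 members among 22118 symbols, 84 nuclear and 13 mitochondrially encoded. The nuclear members comprised 34 genes of complex I, 4 of complex II, 8 of complex III, 21 of complex IV and 17 of complex V, the ATP synthase. Those of complex IV include Cox6c-ps1, a pseudogene by its symbol. The mitochondrially encoded members comprised 7 genes of complex I, 1 of complex III, 3 of complex IV and 2 of complex V. The levels came from single-cell RNA sequencing of liver from Lewis rats in 4 libraries, 1 per condition. The control libraries were naive and CS, cold storage for 4 h at 4 °C. The other libraries came from ex vivo perfusion for 4 h at 37 °C, without (NEVLP2) or with (NEVLPcty) the cytokines IL-10 and TGF-β; the names of the labels were matched to these treatments by their wording. The perfusate was William's E medium with human albumin, insulin, hydrocortisone, heparin, papaverine, antibiotics and Lewis red cells depleted of leukocytes. With 1 library per condition there is no replicate, no test can be made, and a difference between libraries cannot be told apart from a difference between animals or preparations.

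Oxidative phosphorylation passes electrons from NADH (complex I) and succinate (complex II) through complex III to oxygen at complex IV, and the proton gradient so built drives ATP synthesis by complex V. Complex II is built from nuclear genes alone, whereas the other complexes join many nuclear subunits to a few core subunits that are transcribed and translated inside the mitochondrion. Hepatocytes are rich in mitochondria and depend on them for urea synthesis, gluconeogenesis and fatty acid oxidation. Mitochondrial transcripts are made as long polycistronic RNAs, while each nuclear subunit gene has its own promoter.

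The deposited matrices held 3920 (naive), 11200 (CS), 10646 (NEVLP2) and 11763 (NEVLPcty) barcodes with 25609611, 67431270, 65893218 and 72271060 UMIs (unique molecular identifiers, each standing for 1 captured transcript). Any 2 libraries shared between 11 and 35 of these deposited barcodes. After filters on depth, mitochondrial share and doublets, 3203, 9856, 9339 and 10524 cells entered the levels. Cells were clustered with every member and every other mitochondrial gene left out, and clusters were named from marker genes with the ending -like. In each library the class so named held the highest sum of its own markers among classes of at least 50 cells, except for conventional dendritic-like cells, whose list was higher in plasmacytoid dendritic-like cells in all 4 libraries, and monocyte or macrophage-like cells in 1 of 4 libraries. Hepatocyte markers made up 9.37 to 15.5% of the UMIs of hepatocyte-like cells and at most 0.832% of those of any other named class of at least 50 cells. Unnamed clusters held 798, 2504, 2659 and 1194 cells of the 4 libraries, with up to 4.21% hepatocyte markers (naive). A level is given as a percent of all UMIs of a class, or as CPM for a single gene (10000 CPM are 1%), with exact 95% limits that cover counting error only. Counts were not divided by transcript length, so levels were compared between libraries and cell classes and not between genes.

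Mitochondrially encoded members varied far more between libraries than nuclear members in hepatocyte-like cells. In the order naive, CS, NEVLP2, NEVLPcty, which holds wherever 4 values are listed, their summed share was 5.10, 1.46, 1.64 and 0.295% of UMIs (930, 808, 3493 and 1350 cells), a 17.3-fold range. The nuclear members of the same cells made up 3.82, 3.25, 3.89 and 4.56%, a 1.41-fold range, and NEVLPcty, lowest for the mitochondrial genome, was highest for the nuclear genes. For each nuclear count there were 1.33, 0.451, 0.421 and 0.0646 mitochondrially encoded counts. As ratios, the mitochondrially encoded sum was 3.49-fold lower in CS than in naive (3.44 to 3.53), 3.11-fold lower in NEVLP2 than in naive (3.09 to 3.14) and 5.56-fold lower in NEVLPcty than in NEVLP2 (5.46 to 5.67). Between NEVLP2 and CS it differed by 1.12-fold (1.11 to 1.14). The median cell showed the same order, with 4.40, 0.981, 1.25 and 0.0752% mitochondrially encoded UMIs. The libraries also differed in the hepatocyte markers of these cells (15.5, 14.2, 9.37 and 10.1% of UMIs) and in their median depth (2225, 1831, 1403 and 1947.5 UMIs), whose part in the result was not tested.

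The limit of 20% mitochondrial UMIs per cell bears on these shares directly. It removed 55 of 985 naive hepatocyte-like cells (5.58%), 6 of 814 in CS, 19 of 3512 in NEVLP2 and 5 of 1355 in NEVLPcty. With no limit the summed share was 6.74, 4.2, 3.34 and 0.334%. The 6 CS cells so added had a median of 8104 UMIs. The log2 ratio of CS against naive was then −0.68 in place of −1.80, that of NEVLP2 against naive −1.01 in place of −1.64, and NEVLP2 against CS turned from 0.16 to −0.33. NEVLPcty stood lowest with or without the limit (log2 ratio to NEVLP2 −3.32 without it and −2.48 with it). The median cell hardly depended on it, at 4.64, 0.989, 1.26 and 0.0758% with no limit.

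**Figure D1:**
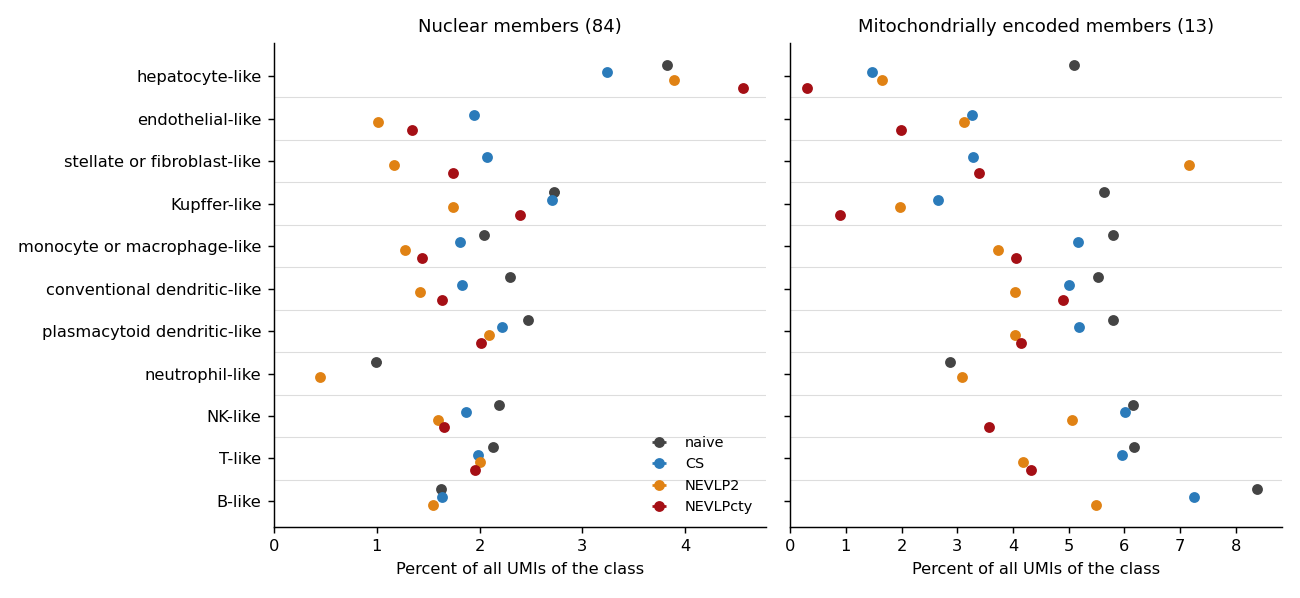
Summed share of nuclear (left) and mitochondrially encoded (right) respiratory chain genes, in percent of all UMIs, by cell class and library; points are sums over the cells of a class with at least 50 cells in that library, and bars, mostly hidden by the points, are exact 95% limits for counting error. Hepatocyte-like cells span 0.295 to 5.10% for the mitochondrial genome but 3.25 to 4.56% for the nuclear genes.

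Hepatocyte-like cells of the 4 libraries lay largely in different clusters, so the comparison was repeated within clusters. Cluster 6 held hepatocyte-like cells of all 4 libraries (363, 727, 213 and 154 cells). Within it the mitochondrially encoded share was 5.41, 1.42, 1.69 and 0.457%, the same order as in the whole class. The nuclear share there was 3.41, 3.22, 2.71 and 2.83%, highest in naive, so that within cluster 6 the nuclear log2 ratio of NEVLP2 was −0.33 against naive and −0.25 against CS, in place of 0.03 and 0.26 in the whole class. Cluster 9 held 1085 NEVLPcty cells, with 4.80% nuclear against 0.232% mitochondrially encoded UMIs. Without cluster 9 the nuclear log2 ratio of NEVLPcty against NEVLP2 turned from 0.23 to −0.17, and the mitochondrially encoded one moved from −2.48 to −1.48. The cells then left lay mostly in cluster 6 in NEVLPcty (154 cells) and in cluster 1 in NEVLP2 (3198 cells). Within each hepatocyte-like cluster the nuclear share was higher in NEVLPcty than in NEVLP2. It was 4.07 and 3.99% in cluster 1 (84 and 3198 cells) and 2.83 and 2.71% in cluster 6 (154 and 213 cells). In cluster 9 it was 4.80 and 4.19% (1085 and 60 cells). Cluster 16 gave 3.09 and 2.08%, but from 27 and 22 cells, fewer than the 50 required of a class. Cluster 1 held 3198 NEVLP2 cells (3.99% nuclear, 1.49% mitochondrially encoded) and cluster 16 held 566 naive cells (4.17% and 4.84%). Cluster 3, which hepatocyte markers led but which stayed unnamed for its low UMI counts, gave 3.6% in 645 naive cells, 1.27% in 1497 CS cells and 0.246% in 210 NEVLPcty cells for the mitochondrial genome, against 5.11, 4.85 and 5.89% for the nuclear genes. Across hepatocyte-like cells of a library the nuclear and mitochondrially encoded shares were weakly and inversely related (Spearman's rho between −0.256 and −0.177 over 808 to 3493 cells). Both shares have the same total as denominator.

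**Figure D2:**
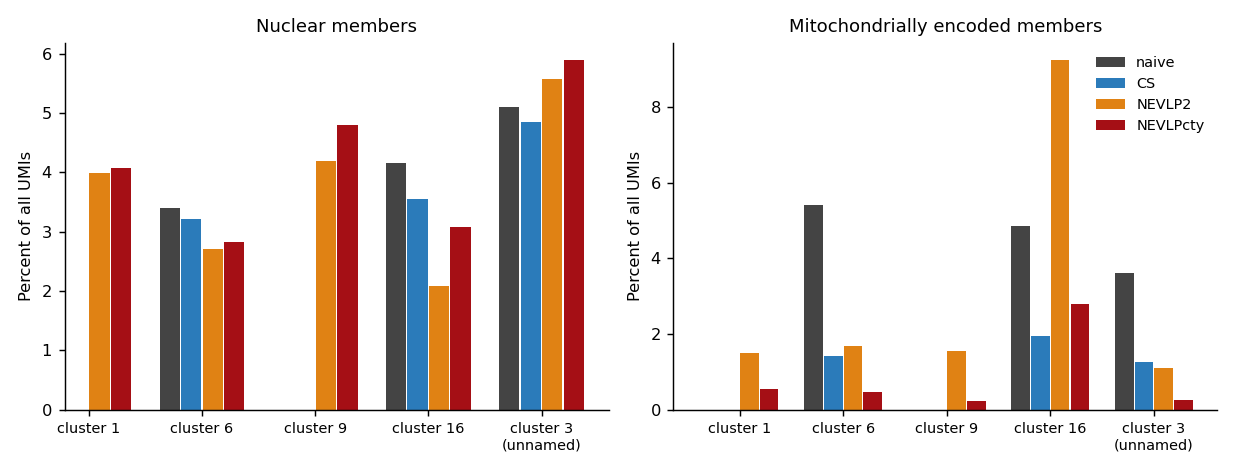
Summed share of nuclear (left) and mitochondrially encoded (right) members, in percent of all UMIs, in the 4 hepatocyte-like clusters and the unnamed cluster 3, by library; bars start at 0 and are shown where a cluster had at least 20 cells of a library. In cluster 6 the mitochondrially encoded share is 5.41% in naive and 0.457% in NEVLPcty; the tall NEVLP2 bar of cluster 16 rests on 22 cells.

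In hepatocyte-like cells each of the 13 mitochondrially encoded members was at least 1.5-fold lower in CS than in naive, in NEVLP2 than in naive and in NEVLPcty than in NEVLP2, and none passed that fold between NEVLP2 and CS. Mt-co1, the catalytic subunit of complex IV, stood at 8925, 2648, 3203 and 618 CPM. Mt-cyb, the only mitochondrially encoded subunit of complex III, stood at 6114, 1830, 2220 and 267 CPM, and had the largest difference of NEVLPcty from NEVLP2 (log2 ratio −3.06, −3.15 to −2.96). Mt-atp6, the proton channel subunit of complex V, stood at 8192, 2220, 2246 and 434 CPM. The member with the smallest difference in that comparison was Mt-nd6, at 4.65 against 19.3 CPM (log2 ratio −2.05, −2.85 to −1.34). Mt-nd1, Mt-nd2, Mt-nd4, Mt-nd4l and Mt-nd5 of complex I and Mt-co2 and Mt-co3 of complex IV lay between Mt-cyb and Mt-nd6 (log2 ratios −2.69 for Mt-nd4l to −2.21 for Mt-nd1), as did Mt-nd3 and Mt-atp8. In CS against naive Mt-atp8 (11.4 against 155 CPM, 13.6-fold, 8.79 to 22.2) and Mt-nd3 (31.5 against 319 CPM, 10.1-fold, 7.77 to 13.4) stood apart from the other 11, whose log2 ratios ran from −2.65 for Mt-nd5 to −1.58 for Mt-co2.

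Nuclear members of hepatocyte-like cells differed in both directions and by less. In CS against naive, 11 of 73 members with at least 50 counts were at least 1.5-fold lower and 0 higher; over all genes tested these shares were 11.4% lower and 18.9% higher. In NEVLP2 against naive, 9 were lower and 11 higher, where all genes gave 11.3% and 55.2% and a median log2 ratio of 0.69 (0.17 for the members). In NEVLP2 against CS, 2 were lower and 11 higher (all genes 11.1% and 48.2%, with a median of 0.54 against 0.26 for the members). In NEVLPcty against NEVLP2 neither direction had a member past the fold, where all genes gave 12.8% lower and 10.6% higher. Yet 68 of 73 members lay above 0 there, with a median log2 ratio of 0.24 against 0.03 for all genes.

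The members with the smallest ratios to naive were small accessory subunits. Ndufa3, an accessory subunit of complex I, stood at 516, 229, 198 and 259 CPM, and was 2.25-fold lower in CS than in naive (2.02 to 2.52). Ndufc1 of complex I (332, 149, 167 and 225 CPM) and Atp5md of the ATP synthase (240, 110, 126 and 167 CPM) followed it in CS against naive. In NEVLP2 against naive, Atp5me of the ATP synthase (571 and 267 CPM) and Ndufb4 of complex I (399 and 194 CPM) followed Ndufa3. In all these genes naive was the highest library.

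Other members were higher in the perfused livers. Sdhb, the iron-sulfur subunit of complex II, stood at 260, 333, 471 and 493 CPM. Uqcrfs1, the Rieske iron-sulfur protein of complex III, stood at 270, 312, 490 and 550 CPM. Atp5if1, the inhibitor of ATP hydrolysis by complex V, stood at 94.0, 112, 171 and 185 CPM, 1.82-fold higher in NEVLP2 than in naive (1.60 to 2.08). These 3 had the largest ratios in NEVLP2 against naive. In CS against naive the largest were Ndufa8 (420 and 305 CPM), Ndufb10 (455 and 331 CPM) and Sdhb, all at most 1.38-fold. In NEVLP2 against CS, Atp5mc3, a membrane ring subunit of the ATP synthase, was 1.74-fold higher (484 and 279 CPM), Atp5f1d of its central stalk 1.69-fold and Uqcrh of complex III 1.59-fold. Ndufc2, a partner of Ndufc1 in complex I, went the other way (263 in CS and 120 CPM in NEVLP2, 2.20-fold lower), followed by Ndufa13 and Ndufb5. In NEVLPcty against NEVLP2 the largest ratios, Cox6b1 (1.38-fold), Uqcr10 (1.36-fold) and Ndufb2 (1.35-fold), and the smallest, Ndufc2, Cox4i1 and Cox6a1, all lay inside 1.5-fold.

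By complex, the nuclear genes of complex II, which has no mitochondrially encoded subunit, had the largest ratio to naive in the perfused hepatocyte-like cells. They made up 0.0789, 0.0849, 0.114 and 0.128% of UMIs. The log2 ratio of NEVLP2 against naive was 0.53 for complex II, 0.14 for complex V, −0.03 for complex IV, −0.04 for complex I and −0.09 for complex III. The median over all genes tested in that comparison was 0.69, above each of these, so the complex II value does not stand out from genes in general. Sdha, the flavoprotein that oxidizes succinate, stood at 135, 127, 151 and 175 CPM. The membrane anchors Sdhc (188, 218, 253 and 300 CPM) and Sdhd (206, 171, 264 and 315 CPM) were also highest in NEVLPcty. The mitochondrially encoded complexes I, III, IV and V were each lower in NEVLPcty than in NEVLP2 (log2 ratios −2.40, −3.06, −2.41 and −2.37).

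**Figure D3:**
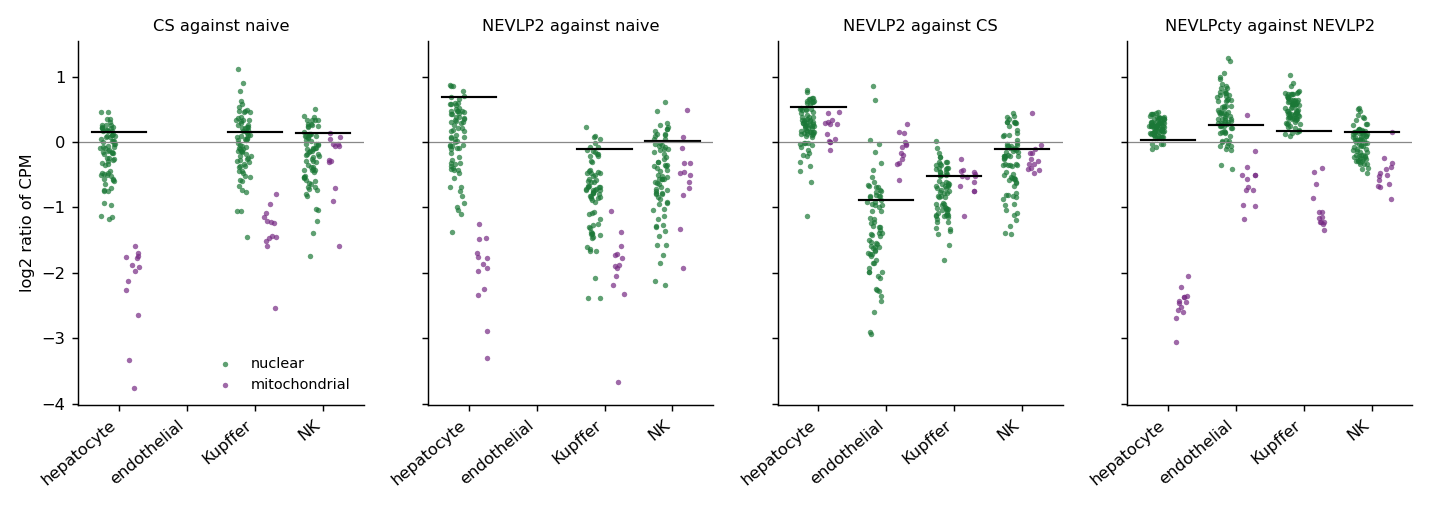
Log2 ratio of CPM for each member with at least 50 counts, in 4 comparisons and 4 cell classes; green points are nuclear and purple points mitochondrially encoded members, horizontal spread is arbitrary, and the black line is the median over all genes tested. In hepatocyte-like cells all purple points lie below all green ones in CS against naive and in NEVLPcty against NEVLP2, and endothelial-like cells, of which naive has too few, show most nuclear members below 0 in NEVLP2 against CS (3 of 74 above 0).

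In endothelial-like cells the nuclear members differed more between NEVLP2 and CS than the mitochondrially encoded ones. The nuclear share was 1.94% in CS (4051 cells), 1.01% in NEVLP2 (474 cells) and 1.34% in NEVLPcty (5803 cells), and the mitochondrially encoded share 3.26, 3.11 and 1.99%; naive had 29 cells and was left out. Hepatocyte markers made up 0.146, 0.209 and 0.121% of UMIs in the 3 libraries, and their part in the result was not tested. Between NEVLP2 and CS the nuclear sum was 1.92-fold lower (1.89 to 1.94) and the mitochondrially encoded sum 1.05-fold lower (1.04 to 1.05). Of 74 nuclear members 66 were at least 1.5-fold lower and 2 higher; over all genes 57.8% were lower and 15.3% higher, with a median log2 ratio of −0.88 against −1.33 for the members. The cells lay in clusters 2 and 8 in CS, in clusters 10 and 0 in NEVLP2 and mainly in cluster 0 in NEVLPcty, so that no cluster held many cells of both CS and NEVLP2. Ndufs3, a core subunit of complex I, stood at 111 CPM in CS, 14.5 in NEVLP2 and 18.8 in NEVLPcty, Ndufv3 at 125, 16.7 and 32.7 CPM, and Ndufs1, the core subunit with most iron-sulfur clusters, at 18.0, 2.99 and 7.10 CPM. Uqcrh (284, 513 and 593 CPM), a hinge protein of complex III, and Ndufa5 (165, 258 and 258 CPM) were the 2 members above 1.5-fold in NEVLP2, and Cox7a2 (401, 411 and 452 CPM) was nearly level. By complex, the log2 ratio was −1.32 for nuclear complex I, −1.52 for complex II, −0.54 for complex III, −0.68 for complex IV and −0.97 for complex V.

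In NEVLPcty against NEVLP2, endothelial-like cells had 22 of 73 nuclear members at least 1.5-fold higher and 0 lower, against 30.9% and 13.6% of all genes. Atp5f1d (323 and 133 CPM, 2.44-fold), Ndufs1 and Ndufa3 (53.3 and 25.6 CPM) had the largest ratios, and Cox7a2l (102 and 136 CPM), Ndufb3 (37.0 and 47.0 CPM) and Ndufa13 (90.4 and 98.7 CPM) the smallest. Mitochondrially encoded members went the other way, 1.56-fold lower as a sum (1.55 to 1.58), with Mt-cyb the lowest. The mitochondrially encoded sum was lower, and the nuclear sum higher, in NEVLPcty than in NEVLP2 in hepatocyte-like, endothelial-like, Kupffer-like, NK-like and stellate or fibroblast-like cells.

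Other mitochondrial gene lists are given for the same endothelial-like comparison, NEVLP2 against CS, in which 57.8% of all genes were lower. Of 71 mitochondrial ribosomal protein genes tested, 65 were at least 1.5-fold lower and 1 higher. Of 42 assembly factors of the respiratory complexes 35 were lower and 3 higher, of 11 citric acid cycle genes 9 and 0, of 16 biogenesis regulators (such as Tfam and Nrf1) 9 and 2, and of 6 electron carriers and related genes 4 and 0. Of 82 cytosolic ribosomal protein genes 7 were lower and 8 higher. In hepatocyte-like cells, where 48.2% of all genes were higher in NEVLP2 than in CS, 2 of 71 mitochondrial ribosomal protein genes were lower and 10 higher, 4 of 36 assembly factors lower and 8 higher, and 1 of 76 cytosolic ribosomal protein genes lower and 66 higher. Of the hypoxia and mitophagy genes, 5 of 11 were lower and 4 higher in endothelial-like cells, and 1 of 11 lower and 7 higher in hepatocyte-like cells.

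Kupffer-like cells, the resident macrophages of the liver, were lower in mitochondrially encoded members in each preserved liver than in naive. The share was 5.64% in naive (72 cells), 2.66% in CS (750), 1.97% in NEVLP2 (303) and 0.886% in NEVLPcty (158), and the nuclear share 2.72, 2.71, 1.75 and 2.39%. The mitochondrially encoded sum was 2.12-fold lower in CS than in naive (2.09 to 2.15) and 2.22-fold lower in NEVLPcty than in NEVLP2 (2.18 to 2.26), with a log2 ratio of −0.18 in place of −1.15 for the latter where each library was clustered alone. Median depth was 943, 16024, 16099 and 3425 UMIs, and its part in these differences was not tested. CS cells lay in cluster 11 and perfused cells in cluster 20. Of the naive cells 35 lay in cluster 11, with a median of 12253 UMIs, and 37 in cluster 20, with a median of 686, and their mitochondrially encoded shares were 5.66 and 5.14%. Their nuclear shares were 2.80 and 1.30%, so that within cluster 20 the nuclear share was higher in NEVLP2 (1.74%, 301 cells) than in naive, opposite to the whole class. As a mean over cells the mitochondrially encoded log2 ratio of NEVLP2 against naive was −0.89 in place of −1.52. That of NEVLP2 against CS was 0.08 in place of −0.44.

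Among 73 nuclear members in Kupffer-like cells, 7 were at least 1.5-fold lower and 4 higher in CS than in naive (all genes 8.52% and 20.3%). In NEVLP2 against naive, where naive cells of cluster 11 carried most of the counts, 47 were lower and 0 higher (31.3% and 27.2%), and in NEVLP2 against CS 49 were lower and 0 higher (47.8% and 16.1%). In NEVLPcty against NEVLP2 26 were higher and 0 lower (23.1% and 12.5%), and all 73 lay above 0, with a median log2 ratio of 0.48 against 0.17 for all genes. Ndufc1 was 2.74-fold lower in CS than in naive (37.2 and 102 CPM), Atp5me 2.07-fold and Ndufb4 2.07-fold, and the same 3 genes had the smallest ratios in NEVLP2 against naive (5.22-, 5.22- and 4.22-fold lower for Ndufc1, Atp5me and Ndufb4). The core subunit Ndufs8 was 2.16-fold higher in CS than in naive (178 and 82.3 CPM), followed by Ndufv1 and Ndufv3. In NEVLP2 against CS, Ndufs3 (29.2 and 101 CPM), Ndufv2 (69.9 and 208 CPM) and Ndufa10l1 (24.1 and 64.1 CPM) had the smallest ratios. Cox5a (631 and 626 CPM), Atp5if1 (675 and 720 CPM) and Uqcrc1 (138 and 155 CPM) were nearly level. Ndufv3 (102 and 49.9 CPM), Cox7a2l (273 and 146 CPM) and Atp5me (114 and 62.7 CPM) led the higher members of NEVLPcty against NEVLP2, whereas Sdhc, Ndufa5 and Cox6b1 differed by at most 1.10-fold.

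At resolution 1 NK-like cells of all 4 libraries lay in the same clusters, 7 and 22, with a median depth of 8697, 3719, 2231 and 3175.5 UMIs. Their nuclear share was 2.19, 1.87, 1.60 and 1.66% (186, 342, 427 and 500 cells), and their mitochondrially encoded share 6.16, 6.01, 5.06 and 3.57%. The mix of the clusters differed, with 68, 218, 305 and 414 cells in cluster 7 and 118, 124, 122 and 86 in cluster 22. The mitochondrially encoded share was 7.40, 6.66, 6.38 and 3.66% in cluster 7. In cluster 22 it was 5.77, 5.49, 3.71 and 3.35%. With finer clusters (resolution 2), before the limits on mitochondrial share and doublets, 1 NK-like cluster held 1, 3, 457 and 439 cells. Another held 139, 339, 3 and 11, and the last was mixed, with 89, 120, 145 and 87. The part of these mixes in the values of NK-like cells was not tested. The 20% limit removed 29.8, 22.4, 24.8 and 5.84% of their cells, and with no limit the mitochondrially encoded share was 9.56, 7.74, 6.95 and 3.97%. As a mean over cells the mitochondrially encoded log2 ratio to naive turned from −0.03 to 0.11 in CS and from −0.28 to 0.10 in NEVLP2. Of 73 nuclear members, 14 were at least 1.5-fold lower and 0 higher in CS than in naive, beside 4.92% and 14.9% of all genes. In NEVLP2 against naive 31 were lower and 1 higher (23.5% and 23.2%), in NEVLP2 against CS 19 and 0 (26.9% and 16.0%), and in NEVLPcty against NEVLP2 0 and 0 (7.58% and 20.3%). Atp5md (45.3 and 152 CPM), Ndufb4 (79.8 and 208 CPM) and Ndufa3 (69.6 and 161 CPM) had the smallest ratios in CS against naive, and Ndufs3, Ndufs7 and Ndufb7 the largest, at most 1.42-fold. In NEVLP2 against naive Ndufb4, Atp5me and Ndufc1 were 4.57-, 4.35- and 3.62-fold lower, and Atp5f1d was the 1 member past the fold upward (517 and 337 CPM, 1.54-fold). In NEVLP2 against CS the smallest were Ndufa12 (2.65-fold lower), Uqcr11 (2.61-fold) and Atp5me (2.44-fold), while Uqcrfs1 and Sdhd were 1.32- and 1.30-fold higher.

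Nuclear shares of T-like cells (304, 164, 150 and 103 cells), in cluster 12 throughout, were 2.13, 1.99, 2.0 and 1.96%, and their mitochondrially encoded shares 6.17, 5.96, 4.18 and 4.33%. In monocyte or macrophage-like cells both sums were lower together, at 2.05, 1.80, 1.28 and 1.44% nuclear and 5.80, 5.17, 3.73 and 4.05% mitochondrially encoded, so that 2.83, 2.87, 2.92 and 2.81 mitochondrially encoded counts stood against each nuclear count. Those cells lay mostly in clusters 23 and 24 in naive and CS and mostly in clusters 18 and 28 in the perfused livers. Conventional dendritic-like cells had 2.29, 1.83, 1.42 and 1.64% nuclear and 5.53, 5.0, 4.03 and 4.90% mitochondrially encoded UMIs, and plasmacytoid dendritic-like cells 2.47, 2.22, 2.1 and 2.01% and 5.79, 5.18, 4.04 and 4.14%. B-like cells, with 46 cells in NEVLPcty, gave 1.62, 1.64 and 1.55% nuclear and 8.37, 7.26 and 5.48% mitochondrially encoded UMIs in naive, CS and NEVLP2. Stellate or fibroblast-like cells had 2.07, 1.17 and 1.74% nuclear and 3.28, 7.16 and 3.39% mitochondrially encoded UMIs in CS, NEVLP2 and NEVLPcty; NEVLP2 cells of the class had a median of 1014 UMIs and 0.832% hepatocyte markers. CS cells were cluster 31, led by Eln, Vwf, Fbln2, Mgp and Col3a1, of which Vwf is a marker of endothelial cells. Nearly all perfused cells were cluster 5, led by the stellate cell genes Colec10, Colec11 and Lrat, so the CS values are of other cells and no difference between CS and the perfused livers is read from them. The mitochondrially encoded log2 ratio of NEVLP2 against CS, 1.13, was 0.54 with a limit of 10% mitochondrial UMIs per cell and 0.30 with finer clusters (resolution 2). Neutrophil-like cells had 0.991% nuclear and 2.87% mitochondrially encoded UMIs in naive (69 cells) and 0.446 and 3.08% in NEVLP2 (204 cells), in different clusters. With no mitochondrial limit 1 more naive cell, of 7233 UMIs, raised the mitochondrially encoded share of naive to 5.02%, and the log2 ratio of NEVLP2 against naive turned from 0.10 to −0.68.

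Counted over classes with at least 50 cells in both libraries, the nuclear sum was higher in CS than in naive in 1 of 8 classes, in NEVLP2 than in naive in 1 of 9, in NEVLP2 than in CS in 2 of 10, and in NEVLPcty than in NEVLP2 in 7 of 9. The mitochondrially encoded sum was higher in 0 of 8, 1 of 9, 2 of 10 and 4 of 9. Without cluster 31, which leaves no stellate or fibroblast-like cells in CS, the counts for NEVLP2 against CS were 2 of 9 nuclear and 1 of 9 mitochondrially encoded. Over 35 clusters of at least 50 cells the nuclear and mitochondrially encoded shares showed no clear relation (Pearson's r −0.217, Spearman's rho −0.0101). The clusters share libraries and the same denominator, and both values are descriptions.

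In CS against naive, 25 of 73 nuclear and 8 of 13 mitochondrially encoded members with enough counts in all 8 classes were below naive in every class, and 7 nuclear members were above it in every class. Over the 2783 genes with enough counts in all 8 classes, 6.4% were below naive and 10.8% above it in every class, and 1.51% were at least 1.5-fold lower in every class. Mt-nd3 and Mt-atp8 and the nuclear genes Ndufc1, Atp5md, Ndufa3, Atp5me and Uqcr10 were at least 1.5-fold lower in CS than in naive in all 8 classes, and 0 members were at least 1.5-fold higher in all 8. Ndufc1 and Ndufa3 are accessory subunits of complex I, Uqcr10 a small subunit of complex III, and Atp5me and Atp5md small subunits of the membrane part of the ATP synthase that takes part in its dimers. Atp5me stood at 571 CPM in naive and 292 in CS in hepatocyte-like cells, 327 and 158 in Kupffer-like, 270 and 152 in NK-like, 239 and 118 in T-like, 166 and 86.5 in B-like and 186 and 71.0 in monocyte or macrophage-like cells. Mt-nd3 stood at 497 and 179 CPM in T-like and at 393 and 130 in NK-like cells, 2.78-fold (2.40 to 3.24) and 3.01-fold (2.56 to 3.56) lower in CS, where the mitochondrially encoded sum differed by 1.04- and 1.02-fold. Median log2 ratios over the 8 classes were −1.61 for Mt-nd3, −1.46 for Mt-atp8, −1.36 for Ndufc1, −1.18 for Atp5md, −1.01 for Ndufa3, −1.0 for Atp5me and −0.94 for Uqcr10. The 7 nuclear members above naive in all 8 classes were Ndufs7, Atp5f1d, Atp5mc2, Ndufb10, Ndufb8, Ndufs3 and Ndufb9. A difference present in every class of 1 library cannot be told apart from a difference in how that library was made.

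The make-up of the mitochondrially encoded counts set Mt-nd3 apart in the same way. Its share of those counts was 0.439 to 0.806% over 9 classes in naive (median 0.646%), against medians of 0.244% in CS, 0.203% in NEVLP2 and 0.312% in NEVLPcty, and the naive classes overlapped those of NEVLPcty alone (0.207 to 0.496%). Mt-atp8 had medians of 0.193, 0.0757, 0.0873 and 0.0965%. Mt-cyb was lowest in NEVLPcty, with a median of 9.64% against 11.8% in naive, 12.6% in CS and 13.1% in NEVLP2, with overlapping ranges. The abundant Mt-co1, Mt-co2, Mt-co3, Mt-atp6, Mt-nd1, Mt-nd2 and Mt-nd4 had overlapping ranges in all 4 libraries, as had Mt-nd4l, Mt-nd5 and Mt-nd6.

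**Figure D4:**
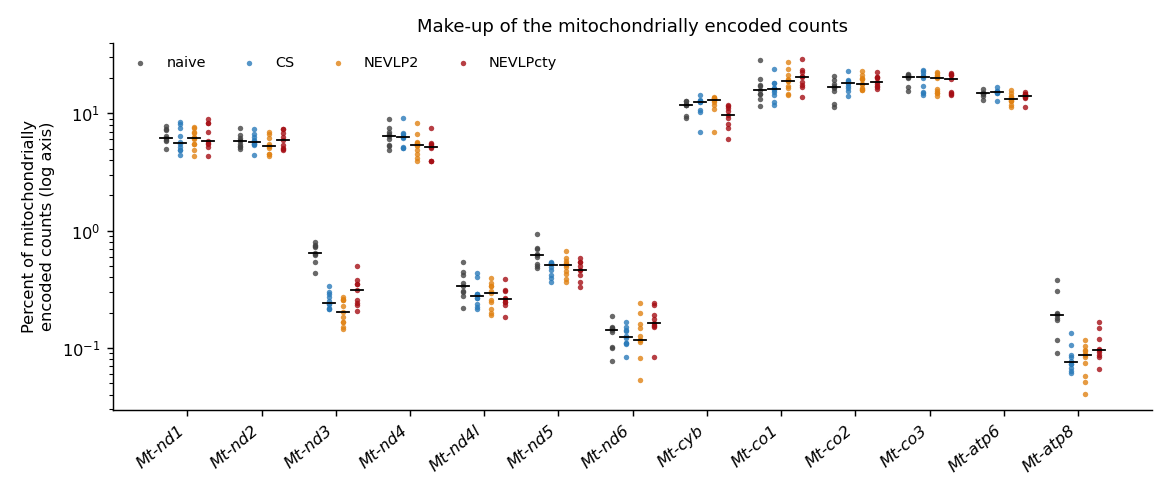
Share of each mitochondrially encoded member among all mitochondrially encoded counts, in percent on a log axis, by library; points are cell classes with at least 50 cells (9 in naive, 10 in CS, 11 in NEVLP2, 9 in NEVLPcty) and short lines their medians. Mt-nd3 has a median of 0.646% in naive and at most 0.312% in the other libraries.

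Of the members, 3 nuclear genes differed between cell classes most, relative to the summed nuclear share, among the members with at least 2000 counts, in a ranking made after their values were seen. Ndufa4, a subunit first assigned to complex I and now counted with complex IV, was high in hepatocyte-like cells (1669, 1479, 1604 and 1893 CPM in naive, CS, NEVLP2 and NEVLPcty) and low in NK-like cells (81.0, 102, 95.5 and 82.5 CPM). Neutrophil-like cells had 154 CPM in naive and 74.1 in NEVLP2. T-like cells had 475, 431, 372 and 385 CPM, so T-like and NK-like cells did not overlap in any library. Plasmacytoid dendritic-like cells had 475 to 579 CPM and Kupffer-like cells 575 to 952 CPM, whereas conventional dendritic-like cells had 116 to 221 CPM and monocyte or macrophage-like cells 137 to 229 CPM. Hepatocyte markers were 0.0573 to 0.211% of UMIs in NK-like and 0.0427 to 0.0855% in T-like cells.

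Atp5if1 was the other way round, low in hepatocyte-like cells (94.0 to 185 CPM) and high in endothelial-like (504 to 828 CPM), Kupffer-like (675 to 849 CPM) and stellate or fibroblast-like cells (449 to 1096 CPM). Neutrophil-like cells, at 103 and 139 CPM, were in the range of the hepatocyte-like ones. In monocyte or macrophage-like cells Atp5if1 stood at 328, 320, 476 and 731 CPM, higher in the perfused livers, while the nuclear sum was lower there. Cox7a2l, which helps to join complexes III and IV into supercomplexes, was highest in T-like cells (622, 595, 550 and 656 CPM) and low in hepatocyte-like cells (117, 125, 145 and 180 CPM). In monocyte or macrophage-like cells it stood at 620, 570, 193 and 307 CPM, against the direction of Atp5if1. Cox4i1, the common form of a nuclear subunit of complex IV, varied little by comparison, at 793 to 1916 CPM in every class but neutrophil-like cells (206 and 360 CPM).

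**Figure D5:**
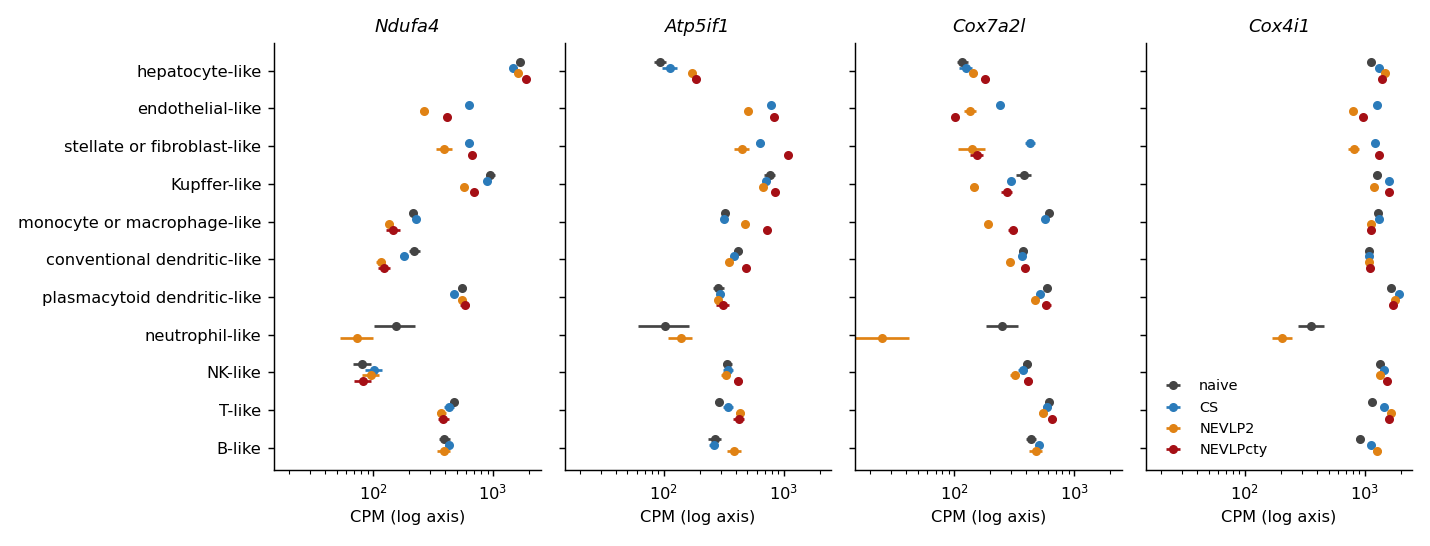
Level in CPM (log axis) of 4 nuclear members by cell class and library; points are sums over the cells of a class with at least 50 cells, bars exact 95% Poisson limits. Ndufa4 separates NK-like cells (81.0 to 102 CPM) from hepatocyte-like cells (1479 to 1893 CPM), Atp5if1 has hepatocyte-like cells at 94.0 to 185 CPM, and Cox4i1 is comparatively even.

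The promoters of these 4 genes and of Atp5me, lower than naive in CS in all 8 classes, are shown as the 250 bases before the annotated start in RefSeq's GRCr8 table, 5′ to 3′ in the direction of the gene. They lie at chr4:40975560-40975809, minus strand (Ndufa4), chr5:150026678-150026927, minus strand (Atp5if1), chr6:16936324-16936573, plus strand (Cox7a2l), chr19:65630133-65630382, plus strand (Cox4i1) and chr14:1464610-1464859, plus strand (Atp5me). Capitals mark matches, on either strand, to 4 motifs of factors known for nuclear respiratory genes: GCATGCGC (core of the NRF1 motif), CCGGAAG (ETS family, which includes GABPA), AAGATGGC (YY1) and AAGGTCA (ERR family).
Ndufa4: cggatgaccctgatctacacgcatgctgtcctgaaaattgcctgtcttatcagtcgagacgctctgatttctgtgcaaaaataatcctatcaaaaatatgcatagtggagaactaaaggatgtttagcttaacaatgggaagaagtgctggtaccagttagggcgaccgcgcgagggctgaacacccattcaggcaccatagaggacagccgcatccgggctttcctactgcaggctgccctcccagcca
Atp5if1: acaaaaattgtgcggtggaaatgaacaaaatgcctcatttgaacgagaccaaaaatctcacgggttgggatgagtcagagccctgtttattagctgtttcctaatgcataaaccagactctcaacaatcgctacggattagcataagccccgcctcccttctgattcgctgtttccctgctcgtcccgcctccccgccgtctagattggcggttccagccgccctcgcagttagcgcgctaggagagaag
Cox7a2l: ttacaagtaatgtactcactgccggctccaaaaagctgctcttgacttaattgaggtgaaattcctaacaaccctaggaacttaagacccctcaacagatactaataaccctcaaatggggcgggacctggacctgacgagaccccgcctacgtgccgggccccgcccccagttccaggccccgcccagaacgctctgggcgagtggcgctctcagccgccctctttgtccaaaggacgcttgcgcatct
Cox4i1: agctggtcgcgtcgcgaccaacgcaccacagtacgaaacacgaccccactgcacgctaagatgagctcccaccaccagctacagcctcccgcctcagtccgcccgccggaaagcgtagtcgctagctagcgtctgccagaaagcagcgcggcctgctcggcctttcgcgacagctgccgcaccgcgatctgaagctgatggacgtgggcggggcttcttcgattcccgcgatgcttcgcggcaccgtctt
Atp5me: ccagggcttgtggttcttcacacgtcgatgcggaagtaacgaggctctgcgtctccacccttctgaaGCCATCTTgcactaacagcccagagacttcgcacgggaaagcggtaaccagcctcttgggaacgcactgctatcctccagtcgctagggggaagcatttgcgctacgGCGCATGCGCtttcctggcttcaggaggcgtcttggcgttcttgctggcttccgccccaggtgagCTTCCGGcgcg
Among these 5, the Atp5me window held matches: an NRF1 core that reads on both strands and overlaps itself, an ETS and a YY1 match. The promoter table matched 72 of the 84 nuclear members by symbol. Of those 72 windows 9 (12.5%) held the NRF1 core, 19 (26.4%) the ETS motif, 2 (2.78%) the YY1 motif and 7 (9.72%) the ERR motif, against 2.38, 7.74, 1.69 and 3.77% of all 27457 promoters of the same length. A match is a description of these letters and not a bound site.

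Isoforms of complex IV known from muscle, lung or testis had few counts. Over all retained cells the counts were 85 for Cox4i2, 214 for Cox6a2, 224 for Cox6b2, 56 for Cox7a1, 1 each for Cox8b and Cox8c and 0 for Cox7b2, and Ndufa4l2, a hypoxia-induced relative of Ndufa4, had 23. Of their common counterparts, Cox6a1 stood at 408 to 571 CPM and Cox8a at 1035 to 1516 CPM in hepatocyte-like cells, and Cox7a2 at 472 to 749 CPM. Cox6a2 was concentrated, with 145 of its 214 counts in the unnamed cluster 15, whose top genes include Ccl17, Ccl22 and Cd207; a UMI of it was found in 39 of 350 NEVLPcty cells (11.1%) and 20 of 284 NEVLP2 cells (7.04%) there, an observation made after the values were seen. Of the 84 nuclear members 3 had no count (Cox7b2, Ndufa1 and Cox6c-ps1) and 7, with these included, had under 50. Ndufa1 and Atp5pb (34 counts) are not among the isoforms above. Whether their few counts reflect low expression or the annotation used was not tested. Counts of Cox6b1, Uqcrb, Ndufa10l1 and Ndufv3 are sums over 2 features of the same symbol, and reads may have been split between such copies.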

How the data were processed

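Single cells of rat liver were profiled with 10x Genomics chemistry in 4 libraries. The deposited values are raw UMI counts per gene and barcode from Cell Ranger's filtered matrices, per the labels' protocols. The submitters' processing notes name Cell Ranger 2.1.1 and the file headers 6.0.0; the build was not given in the sources used here. Barcodes needed at least 200 genes and 500 UMIs to be clustered. Levels left out cells above 20% mitochondrial UMIs and those with the highest Scrublet scores, at 0.8% per 1000 barcodes. Counts were scaled, and 2000 variable genes without any member or mitochondrial gene gave 30 components for Leiden clustering (15 neighbours, resolution 1) in scanpy 1.11.5 with leidenalg 0.10.2. Clusters were named from marker lists. Counts were summed over the cells of a class and library, and classes with at least 50 cells were compared.

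With 1 library per condition there is no replicate, so differences are ratios with exact 95% intervals (binomial for shares, Poisson for CPM, and conditional binomial for ratios; scipy 1.17.1) that cover counting error only. A member or gene entered a count of differences with at least 50 counts over both libraries, and was called higher or lower past 1.5-fold. NEVLP2 and CS against naive share the naive library, and 3 comparisons share NEVLP2. Named members were the mitochondrially encoded ones, the Sdh genes, Atp5if1 and paired isoforms of complex IV with Ndufa4. Further nuclear members came from the 3 largest and the 3 smallest ratios of a comparison in hepatocyte-like, endothelial-like, Kupffer-like and NK-like cells. They were not listed for every comparison, nor for the other classes. The values of 1 such member are not reported here. The members and lists were chosen with earlier results of these data known. The ratio and count steps were tested on simulated data. Promoters came from RefSeq's GRCr8 table by symbol. Alternatives were other limits on mitochondrial UMIs, depth and doublets, other clusterings, other denominators, thinning to 1000 UMIs, means over cells and other limits for calls; 6 were added after the data were seen.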

Additional observations from a re-analysis of the deposited data

Results flagged for a closer look

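In 6 comparisons classes of both directions had counting intervals that left out a ratio of 1, and for each the 2 classes farthest apart are given; the difference between classes was not tested, since each condition has 1 library. The nuclear members in CS against naive were also higher in 1 class and lower in 7, but the interval of the higher one (B-like cells, log2 ratio 0.01) included a ratio of 1. For the nuclear members, NEVLP2 against naive was higher in hepatocyte-like and lower in neutrophil-like cells (log2 ratios 1.18 apart). The hepatocyte-like ratio was 0.03 and turned negative under 7 alternatives, to −0.33 in cluster 6 alone. NEVLP2 against CS was higher in hepatocyte-like and lower in endothelial-like cells (1.2 apart), where the hepatocyte-like ratio turned to −0.25 in cluster 6 alone. NEVLPcty against NEVLP2 was higher in stellate or fibroblast-like and lower in plasmacytoid dendritic-like cells (0.632 apart). For the mitochondrially encoded members, NEVLP2 against naive was higher in neutrophil-like and lower in hepatocyte-like cells (1.74 apart). The neutrophil-like ratio turned from 0.10 to −0.68 with no mitochondrial limit, which added 1 naive cell. NEVLP2 against CS was higher in stellate or fibroblast-like and lower in T-like cells (1.64 apart). The stellate or fibroblast-like cells of CS were cluster 31 and those of NEVLP2 nearly all cluster 5, and their ratio, 1.13, was 0.54 with a limit of 10% mitochondrial UMIs and 0.30 at resolution 2. NEVLPcty against NEVLP2 was higher in conventional dendritic-like and lower in hepatocyte-like cells (2.76 apart).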

How the results depend on the processing

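Of 850 log2 ratios of summed members under the alternatives listed at first, 463 stayed within their counting interval, 366 moved beyond it and 21 turned; 8 moved by over 1.5-fold. A change of sign was counted as a turn only where the main interval left out a ratio of 1. Ratios near 0 that changed sign are therefore among those that stayed or moved. Of 430 under the 6 alternatives added after the data were seen, which regroup clusters, 408 stayed, 17 moved and 5 turned; 2 moved by over 1.5-fold. The nuclear ratio of NEVLP2 against naive in hepatocyte-like cells, 0.03, turned to −0.026 per non-mitochondrial UMI, −0.039 thinned to 1000 UMIs, −0.061 as a mean over cells, −0.071 at resolution 2, −0.10 with each library clustered alone, −0.10 with cluster 3 added and −0.33 in cluster 6 alone. The nuclear ratio of NEVLP2 against CS in these cells turned to −0.083 with cluster 3 added and −0.25 in cluster 6 alone, and that of NEVLPcty against NEVLP2 to −0.17 without cluster 9. Within hepatocyte-like clusters 1, 6 and 9 the nuclear share was higher in NEVLPcty than in NEVLP2. So it was in cluster 16, but from 27 and 22 cells. In T-like cells clustered per library the nuclear ratios to naive were 0.029 (CS) and 0.0046 (NEVLP2), and with doublets kept that of NEVLP2 against CS in B-like cells was 0.048. With no mitochondrial limit the mitochondrially encoded ratios turned to −0.33 (hepatocyte-like, NEVLP2 against CS), −0.68 (neutrophil-like, NEVLP2 against naive), and −0.10 and −0.0062 (T-like and plasmacytoid dendritic-like, NEVLPcty against NEVLP2). Thinned to 1000 UMIs they turned to −0.018 and −0.16 in the latter 2, and to 0.012 and 0.0058 in NK-like and plasmacytoid dendritic-like cells, CS against naive. As means over cells they turned to −0.021 and −0.17 in T-like and plasmacytoid dendritic-like cells, NEVLPcty against NEVLP2, 0.083 in Kupffer-like cells, NEVLP2 against CS, and 0.11 and 0.10 in NK-like cells, CS and NEVLP2 against naive. The cause of these changes was not tested.

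Counts of classes that were higher changed as follows. The nuclear count for CS against naive, 1, was 2 with no mitochondrial limit, at resolution 2, with each library clustered alone, with cells holding hepatocyte markers left out and with cluster 4 as endothelial-like, and 0 with doublets kept, per non-mitochondrial UMI and after thinning. The nuclear count for NEVLP2 against naive, 1, was 0 per non-mitochondrial UMI, after thinning, as means over cells, at resolution 2, with cluster 3 added and in cluster 6 alone. The nuclear count for NEVLP2 against CS, 2, was 1 per non-mitochondrial UMI, as means over cells, at resolution 2, with each library clustered alone, with cluster 3 added and in cluster 6 alone. The mitochondrially encoded counts were 0 (NEVLP2 against naive) and 1 (NEVLP2 against CS) with no limit, 1 (NEVLP2 against CS) with each library clustered alone and without cluster 31, 2 (CS against naive) and 2 (NEVLPcty against NEVLP2) after thinning, and 1, 2 and 2 (CS against naive, NEVLP2 against naive, NEVLPcty against NEVLP2) as means over cells.

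At a limit of 2-fold fewer nuclear members passed. In hepatocyte-like cells 3 were lower in CS against naive, 3 lower and 0 higher in NEVLP2 against naive, and 1 lower and 0 higher in NEVLP2 against CS. In endothelial-like cells 0 were higher in NEVLP2 against CS and 3 higher in NEVLPcty against NEVLP2. In Kupffer-like cells 3 were lower and 1 higher in CS against naive, 22 lower in NEVLP2 against naive, 24 lower in NEVLP2 against CS and 1 higher in NEVLPcty against NEVLP2. In NK-like cells 5 were lower in CS against naive, 15 lower and 0 higher in NEVLP2 against naive and 7 lower in NEVLP2 against CS. With a minimum of 20 counts 2 endothelial-like members were lower in NEVLPcty against NEVLP2, with no mitochondrial limit 1 NK-like member was higher in CS against naive, and per non-mitochondrial UMI 7 hepatocyte-like members were higher in NEVLP2 against naive. No paired analysis was possible because each condition has 1 library. Shallow classes limit single genes: Ndufs1 in endothelial-like NEVLP2 cells, at 2.99 CPM, has a ratio to CS between 2.9- and 15.1-fold lower.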
